A study of Mus musculus with 6 samples.

Results

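The RNAs of RNase P, RNase MRP and 7SK were followed in whole mouse ovaries as 6 genes, Rprl1, Rprl2, Rprl3, Rpph1, Rmrp and Rn7sk, of 55487 in the deposited table. They were taken by symbol, and the group was chosen by the measured counts of Rprl3, which lay almost wholly in GalTKO libraries, so the values of these genes between genotypes are a description and carry no test. The 3 GalTKO samples came from mice with the genotype label GalTKO, in which the galactose enzyme gene Galt is disrupted, and the 3 wildtype samples from mice labelled wildtype. All 6 were ovaries taken at postnatal day 49 after 4 weeks on a diet with 2.5% galactose, and the mixed strain cbl/6-ola/129 is named for both groups. How inherited strain segments are spread over the groups was not examined, so their part in a difference cannot be told apart from that of Galt. The labels give neither litter nor stage of the estrous cycle, and do not say that each sample is a separate animal, and what a p-value measures is the spread among the samples, which may be technical.

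RNase P is a ribozyme that removes the leader from the 5′ end of transfer RNA precursors. RNase MRP is its close relative, shares most of its protein subunits and cleaves precursors of ribosomal RNA. 7SK RNA holds the elongation kinase P-TEFb (Cdk9 with cyclin T) in an inactive particle and so limits the release of paused RNA polymerase II. All these RNAs are made by RNA polymerase III from promoters that lie upstream of the gene, and none carries a poly(A) tail. The libraries here were made from total RNA after removal of ribosomal RNA.

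The symbols stand for 8 Ensembl entries, since Rprl1 and Rmrp have 2 each. Counts were present for 5 of the 6 genes, and 4 (Rpph1, Rprl3, Rmrp and Rn7sk) passed the low-count filter. Of those 4, 1 was called at an adjusted p under 0.05 in edgeR's quasi-likelihood test, against 2.55% of the 16957 genes tested (1.13% higher and 1.43% lower in GalTKO), and since the contrast chose the group nothing is read from that count. Libraries held 19232486 to 25729564 counts. Galt (ENSMUSG00000036073, chromosome 4) had 0.155, 0.259 and 0 CPM in GalTKO libraries, against 17.8, 16.1 and 17.4 CPM in wildtype libraries (CPM, counts scaled to TMM library sizes). Its log2 fold change was -6.82 ± 0.41 (SE), with an adjusted p of 0.000153 in edgeR's test. Oocyte markers (7 of 7 with counts in every library) summed to 245 to 288 CPM in GalTKO libraries and 215 to 331 CPM in wildtype libraries, and granulosa markers (6 of 6) to 3780 to 4160 CPM in GalTKO and 3610 to 4500 CPM in wildtype libraries. Theca and steroidogenic markers (4 of 4) summed to 6630 to 9960 CPM in GalTKO libraries and 10700 to 15700 CPM in wildtype libraries, and luteal markers (4 of 4) to 1550 to 3660 CPM in GalTKO and 3780 to 6270 CPM in wildtype libraries. Macrophage markers (5 of 5) summed to 111 to 130 CPM in GalTKO and 156 to 201 CPM in wildtype libraries, and fat markers (2 of 4 with counts in every library) to 40.1 to 54 CPM in GalTKO and 21.1 to 23.9 CPM in wildtype libraries. Blood markers (2 of 5) summed to 2.01 to 3.84 CPM in GalTKO and 2.96 to 6.71 CPM in wildtype libraries, and oviduct markers (3 of 4) to 0.518 to 1.35 CPM in GalTKO and 0.476 to 21 CPM in wildtype libraries. The part of these cell types in the values below was not tested. In bulk tissue, fewer cells of a type and less RNA per cell cannot be told apart.

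The copies of the RNase P RNA are shown with Rpph1 because the genotype difference turns on telling them apart. Rpph1 (ENSMUSG00000092837, chr14:50807449-50807767, minus strand, 319 bases, annotated as a ribozyme) is the RNA of RNase P itself. Its capitals mark a stretch of 42 bases at positions 182 to 223 that holds a unit of 21 bases 2 times in a row. In Rprl3 (ENSMUSG00000088025, chr8:3803069-3803358, minus strand, 290 bases), Rprl2 (ENSMUSG00000087775, chr3:22251374-22251663, plus strand, 290 bases) and Rprl1 (ENSMUSG00000088675, chr6:69326844-69327170, minus strand, 327 bases), capitals mark bases that differ from Rpph1 or have no partner in it. The sequences are those of GENCODE M21 on GRCm38, written 5′ to 3′ with T for U, and stop at base 257 in Rpph1, where the alignment to the copies ends, and at base 290 in Rprl1.
Rpph1: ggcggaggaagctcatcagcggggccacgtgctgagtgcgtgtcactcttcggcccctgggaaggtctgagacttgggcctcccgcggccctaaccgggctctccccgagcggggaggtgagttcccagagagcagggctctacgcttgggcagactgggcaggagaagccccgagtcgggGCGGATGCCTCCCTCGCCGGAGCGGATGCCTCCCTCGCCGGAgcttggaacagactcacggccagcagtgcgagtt
Rprl3: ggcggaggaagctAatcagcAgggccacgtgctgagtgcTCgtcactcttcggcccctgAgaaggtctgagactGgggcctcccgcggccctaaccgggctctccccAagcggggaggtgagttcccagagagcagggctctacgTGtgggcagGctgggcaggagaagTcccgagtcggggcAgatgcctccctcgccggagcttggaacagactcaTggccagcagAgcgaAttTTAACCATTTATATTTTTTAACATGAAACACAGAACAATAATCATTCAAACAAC
Rprl2: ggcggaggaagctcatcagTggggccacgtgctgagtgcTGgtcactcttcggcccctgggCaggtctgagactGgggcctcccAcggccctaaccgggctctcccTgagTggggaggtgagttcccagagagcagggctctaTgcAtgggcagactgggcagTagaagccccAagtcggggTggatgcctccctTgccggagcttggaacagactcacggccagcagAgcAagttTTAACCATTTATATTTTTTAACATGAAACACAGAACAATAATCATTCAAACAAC
Rprl1: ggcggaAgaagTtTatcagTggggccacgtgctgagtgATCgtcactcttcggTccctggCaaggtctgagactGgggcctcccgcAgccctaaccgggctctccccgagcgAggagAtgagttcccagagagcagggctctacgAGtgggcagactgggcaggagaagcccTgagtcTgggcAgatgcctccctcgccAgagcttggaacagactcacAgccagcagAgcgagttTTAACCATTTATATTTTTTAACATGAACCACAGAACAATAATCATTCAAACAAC
Each copy aligned to Rpph1 over 236 bases and lacked 21 bases at the place of the repeat. Rprl3 was identical to Rpph1 at 221 of the 236 bases (93.6%), Rprl2 at 220 (93.2%) and Rprl1 at 215 (91.1%). The 3′ ends had no partner in Rpph1, over 54 bases in Rprl3, 54 in Rprl2 and 91 in Rprl1. Among themselves the copies were also distinct, with 267 of 290 bases identical between Rprl3 and Rprl1 (92.1%), 267 between Rprl3 and Rprl2 (92.1%) and 262 between Rprl1 and Rprl2 (90.3%). The longest run of bases that Rprl3 shares without a difference was 37 bases with Rpph1, 56 with Rprl2 and 29 with Rprl1. No stretch of 50 bases of Rprl3 therefore occurs in Rpph1, while 7 of its 241 such stretches occur in Rprl2.

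**Figure D1:**
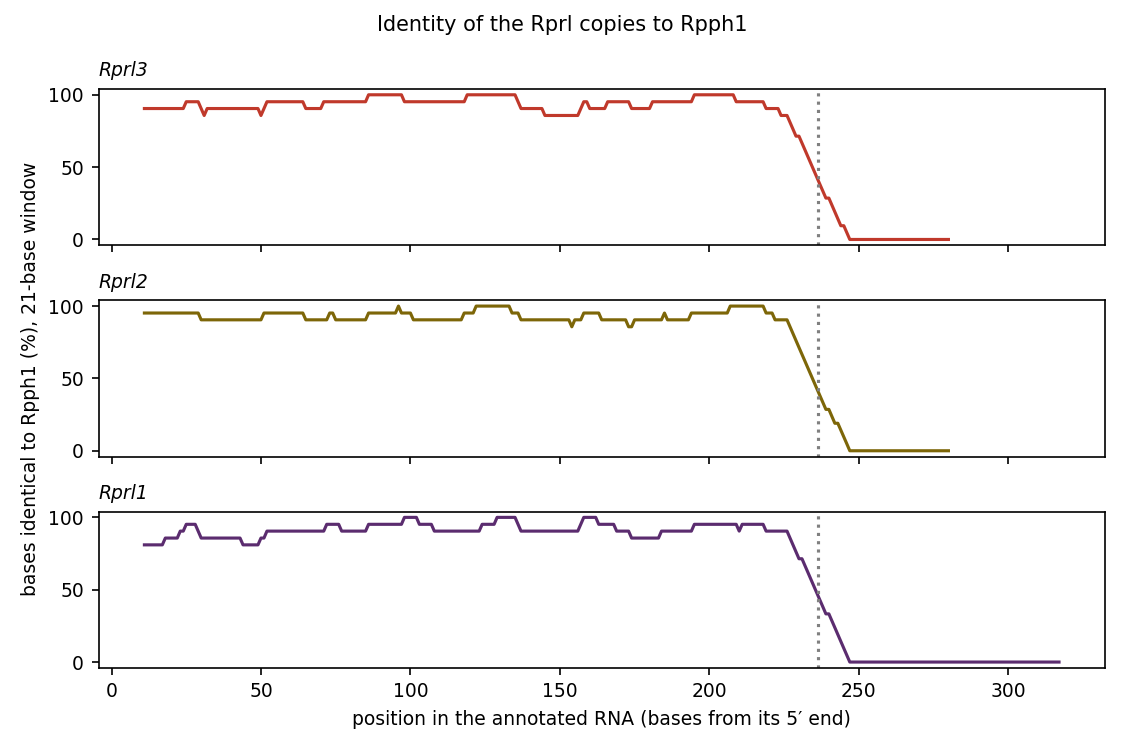
Share of bases identical to Rpph1 (percent, y axis) in windows of 21 bases along Rprl3, Rprl2 and Rprl1 (x axis, position of the window centre from the 5′ end), with a dotted line at the end of the aligned 236 bases. The 3 copies run parallel to Rpph1 up to that line and have no matching base in the windows that lie wholly beyond it.

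Rprl3 is annotated as an RNase P RNA-like gene, and whether its RNA enters an RNase P particle is not addressed by these data. It had 325, 290 and 353 counts in GalTKO libraries, against 0, 3 and 0 counts in wildtype libraries. In CPM these were 12.6, 12.5 and 18.4 in GalTKO libraries and 0, 0.127 and 0 in wildtype libraries, and per length 43.4, 43.1 and 63.4 RPKM in GalTKO libraries. The groups did not overlap, as in 23.7% of all genes tested, and this contrast is the one by which Rprl3 was chosen. The lowest GalTKO library stood far above the only wildtype library with counts. The summed counts were 968 in GalTKO and 3 in wildtype libraries, a ratio of 339 (exact 95% interval 116 to 1650, counting error only), and the fitted log2 fold change was 8.26 ± 0.55 (SE). All wildtype counts lay in replicate 2; without it, Rprl3 was at least 227-fold higher in GalTKO with 3 counts over both remaining wildtype libraries taken as their floor.

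The level of Rprl3 in GalTKO ovaries was small beside that of Rpph1. As a share of the summed RNase P RNA counts (Rpph1 and Rprl1 to Rprl3), it was 0.215% (exact Clopper-Pearson 95% interval 0.192 to 0.24), 0.231% (0.205 to 0.259) and 0.269% (0.241 to 0.298) in the 3 GalTKO libraries. Wildtype replicate 2 had 0.00167% (0.000345 to 0.00489). The other wildtype libraries had 0 counts, with the same kind of interval reaching 0.00246% in each (0.002% with 0 taken as 3 counts). The GalTKO shares thus ran from 0.215% to 0.269%, above the share in every wildtype library. The intervals of GalTKO replicates 1 and 3 did not overlap, so these libraries differed beyond counting error. All intervals and floors cover counting error only.

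Rprl2, the copy closest to Rprl3 by shared runs, did not pass the low-count filter. It had 9, 3 and 12 counts in GalTKO libraries and 0, 0 and 3 counts in wildtype libraries, so the groups touched at 3 counts. The sums of 24 in GalTKO and 3 in wildtype libraries gave a ratio of 8.41 (exact 95% interval 2.55 to 43.6, counting error only). Its share of RNase P RNA counts was 0.00595%, 0.00239% and 0.00913% in GalTKO libraries, and 0, 0 and 0.002% in wildtype libraries. Both Rprl1 entries (the second is ENSMUSG00000106222) were at 0 counts in all 6 libraries, and no fold can be given. For counted reads this allows up to 0.116 to 0.156 CPM in GalTKO and 0.12 to 0.13 CPM in wildtype libraries. The entries overlap on the minus strand (chr6:69326844-69327170 and chr6:69326937-69327174). How reads in both were assigned is not stated, so the level of the RNA itself is not bounded.

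**Figure D2:**
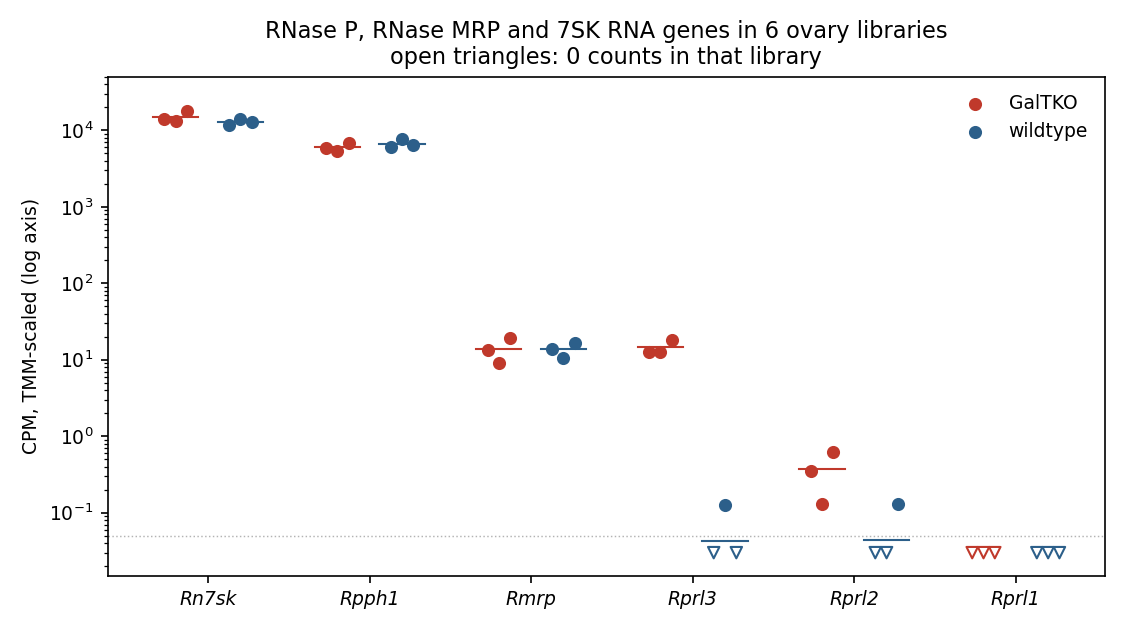
Level of each RNA gene (CPM, log axis) in the 3 GalTKO (red, left) and 3 wildtype (blue, right) ovary libraries, with lines at the group means; open triangles under the dotted line are libraries with 0 counts. Rn7sk, Rpph1 and Rmrp overlap between genotypes, Rprl3 stands at 12.5 to 18.4 CPM in GalTKO libraries against at most 0.127 CPM in wildtype libraries, and Rprl1 has no counts.

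Rpph1 was among the most abundant RNAs of the table. It had 5837, 5409 and 6821 CPM in GalTKO libraries, against 5996, 7582 and 6486 CPM in wildtype libraries, and ranked between the third and the sixth gene by counts in every library. The mean was 6022 ± 724 CPM in GalTKO and 6688 ± 812 CPM in wildtype libraries (SD, n = 3 each), and the groups overlapped. The log2 fold change was -0.15 ± 0.15 (SE), no larger than its error. Relative to the other small noncoding RNAs of the same library it was -0.84 ± 0.32 (SE). Those RNAs include Gm24305, with 16584 counts in GalTKO replicate 1 and 122 to 329 in each other library, and its part is not known. Adding the counts of the 3 copies left the first of these log2 fold changes nearly as it was. The summed RNase P RNA had 5850, 5422 and 6840 CPM in GalTKO libraries and 5996, 7582 and 6486 CPM in wildtype libraries, with a log2 fold change of -0.15 ± 0.15 (SE).

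Rmrp, the RNA of RNase MRP, lies on chromosome 4 about 1.73 Mb from Galt. The longer of its 2 entries, a lincRNA in the annotation, was the one with counts (ENSMUSG00000115420, chr4:43492783-43493063, minus strand, 281 bases). The shorter ribozyme entry (ENSMUSG00000088088, 271 bases) had 0 counts in all 6 libraries. The sequence of the longer entry is shown with capitals on the 5 bases at each end that the shorter entry lacks.
Rmrp: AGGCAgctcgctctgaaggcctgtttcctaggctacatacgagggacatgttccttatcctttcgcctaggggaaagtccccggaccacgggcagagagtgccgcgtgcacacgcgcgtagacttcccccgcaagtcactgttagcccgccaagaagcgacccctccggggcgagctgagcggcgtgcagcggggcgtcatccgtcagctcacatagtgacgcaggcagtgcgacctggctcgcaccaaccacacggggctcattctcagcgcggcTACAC
Every base of the shorter entry thus lies inside the longer one, and the sources used here do not say how reads that fall in both were assigned. Rmrp had 13.5, 9.10 and 19.1 CPM in GalTKO libraries, against 14.0, 10.4 and 16.4 CPM in wildtype libraries. The mean was 13.9 ± 4.99 CPM in GalTKO and 13.6 ± 3.00 CPM in wildtype libraries (SD, n = 3 each), and the wildtype values lay inside the GalTKO range. The log2 fold change of Rmrp was 0.02 ± 0.28 (SE), or -0.75 ± 0.34 (SE) relative to the other small noncoding RNAs, Gm24305 included. Its coefficient of variation was 35.9% in GalTKO and 22% in wildtype libraries, beside 12% in GalTKO and 12.1% in wildtype libraries for Rpph1. In counted reads per length, Rpph1 exceeded Rmrp 382, 523 and 315 times in GalTKO libraries and 377, 639 and 348 times in wildtype libraries. This ratio overlapped between genotypes. It depends on how reads shared with overlapping entries were assigned, at Rmrp and at Rpph1 (with Ccnb1ip1, below). The ratio is therefore no measure of the relative amounts of the 2 related RNAs.

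Rn7sk (ENSMUSG00000065037, chr9:78175303-78175633, minus strand, 331 bases, a misc_RNA in the annotation) is the 7SK RNA. Its 5′ hairpin is known for GATC motifs (GAUC in the RNA) that take part in binding the inhibitor Hexim1, and the capitals mark the 3 GATC found, at positions 13 to 16, 42 to 45 and 64 to 67 of the first 100 bases shown (GENCODE M21).
Rn7sk: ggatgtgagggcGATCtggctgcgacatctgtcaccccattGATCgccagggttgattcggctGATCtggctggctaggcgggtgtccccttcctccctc
Rn7sk was first or second by counts in every library. It had 14090, 13150 and 17760 CPM in GalTKO libraries, against 11800, 13980 and 12810 CPM in wildtype libraries, and made up 1.42%, 1.33% and 1.77% of GalTKO and 1.19%, 1.39% and 1.25% of wildtype counts. The groups overlapped, with wildtype replicate 2 above the lowest GalTKO library. The mean was 15000 ± 2430 CPM in GalTKO and 12860 ± 1090 CPM in wildtype libraries (SD, n = 3 each), and the log2 fold change was 0.22 ± 0.17 (SE). Relative to the other small noncoding RNAs of the same library, Gm24305 included, it was -0.48 ± 0.32 (SE), the opposite sign.

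Rn7sk and Rpph1 together took 2%, 1.88% and 2.46% of the counts in GalTKO libraries and 1.79%, 2.15% and 1.88% in wildtype libraries. The ratio of Rn7sk to Rpph1, which does not depend on library scaling, separated the groups where neither gene did alone. Per length it was 2.33, 2.34 and 2.51 in GalTKO libraries, against 1.90, 1.78 and 1.90 in wildtype libraries. It was higher in each GalTKO library than in each wildtype library, and as both genes belong to the chosen contrast this is a description with no test. Taken as single genes, 23.7% of all genes tested had groups that did not overlap, and no such share was taken for ratios. The ratio of Rpph1 to Rmrp did overlap. As a mean of counted reads per length, the order in GalTKO libraries was Rn7sk (45320 RPKM), Rpph1 (18880 RPKM), then Rmrp and Rprl3. The CPM ranges of Rmrp and Rprl3 overlap there. At Rpph1 and Rmrp these values depend on how reads in overlapping entries were assigned. In wildtype libraries Rn7sk (38860 RPKM) and Rpph1 (20960 RPKM) led in the same order, and Rprl3 was at or near 0.

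Reads from close copies can be counted at more than 1 gene, so the copies of each RNA were examined by sequence. Besides Rprl1 to Rprl3, annotated genes similar to Rpph1 on the same strand (blastn E value of at most 1e-05) held few counts. Of 20 such entries 4 had any, namely Rprl3, Rprl2, the overlapping gene Ccnb1ip1 and Gm25661, and Gm25661 had 3 counts in all in GalTKO and 2 in wildtype libraries. Of the 270 stretches of 50 bases in Rpph1, 184 (68.1%) also occur in a transcript of Ccnb1ip1 and in no other annotated gene. Rn7sk has many more relatives: 237 similar entries, 48 of them with counts. Of the 237, 34 are close (at least 80% identity over at least 50% of Rn7sk), and 17 of these have counts. The close copies summed to 1275, 1356 and 1060 counts in GalTKO libraries, against 883, 1143 and 809 in wildtype libraries, and the Rn7sk counts themselves ran from 295117 to 364128. The groups of these sums overlapped, since wildtype replicate 2 exceeded GalTKO replicate 3. Of the 5 close copies tested, 0 were called by edgeR, DESeq2 or voom, 4 had an unadjusted p under 0.05 in edgeR, and all 5 had a positive log2 fold change, median 0.73. Among the 16957 genes tested, 17.1% had an unadjusted p under 0.05 and 53.4% a positive log2 fold change. The 12 tested misc_RNA genes other than Rn7sk, a type that includes these copies, all had positive values too, with a median of 0.79 and 8 at an unadjusted p under 0.05. The most abundant, Gm24447, which matches Rn7sk at 100% over 241 bases, had a log2 fold change of 0.41 ± 0.17 (SE, adjusted p = 0.262, edgeR), and Gm24146 had an adjusted p of 0.11. Gm24447, Gm24146 and 5 other copies share 192 of the 282 stretches of 50 bases in Rn7sk (68.1%), so their counts and those of Rn7sk are uncertain to that extent.

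The genes that overlap or adjoin these RNA genes were then tested with the whole table, since reads of a neighbour could be counted at the RNA gene. Within 10 kb lay 10 annotated genes, of which 7 were tested and 1 was called, against 2.55% of all genes tested. Ccnb1ip1, which encodes the meiotic crossover factor HEI10 (ENSMUSG00000071470, chr14:50789248-50807732, minus strand), overlaps Rpph1 by 284 bases on the same strand. It rose in GalTKO ovaries, with 31, 22 and 17 counts in GalTKO libraries, against 1, 2 and 0 counts in wildtype libraries. The ratio of the sums was 24.5 (exact 95% interval 8.06 to 122, counting error only), and the log2 fold change was 4.44 ± 0.61 (SE, adjusted p = 0.0097, edgeR; 1.01 ± 0.17 CPM in GalTKO and 0.0415 ± 0.0423 CPM in wildtype, SD, n = 3 each). It was called in 12 of 13 other fits, with adjusted p from 4.37e-05 to 0.0589, and was lost without wildtype replicate 1. The sources used here do not say how reads in the shared bases were divided between Ccnb1ip1 and Rpph1, which leaves the levels of both uncertain. The same holds for the shares and ratios above that use Rpph1. In GalTKO libraries Ccnb1ip1 had 70 counts and Rpph1 had 407250.

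Parp2, a poly(ADP-ribose) polymerase of DNA repair, starts 73 bases from Rpph1 on the other strand. It had 25.2, 25.0 and 25.6 CPM in GalTKO libraries, against 18.1, 20.7 and 16.6 CPM in wildtype libraries. The groups did not overlap, as in 23.7% of all genes tested. The log2 fold change of 0.45 ± 0.11 (SE) missed the threshold in edgeR (adjusted p = 0.0834) and passed it in DESeq2 (adjusted p = 0.0237). Ccdc107, which overlaps Rmrp by 164 bases on the opposite strand, had a log2 fold change of 0.26 ± 0.16 (SE, adjusted p = 0.471, edgeR), and the strand setting of the counting is unstated. Around Rn7sk, the log2 fold change was 0.01 for the kinase gene Ick, -0.02 for C920006O11Rik, which lies 280 bases away on the other strand, and 0.19 for the glutathione transferase gene Gsta4. Arhgef39, near Rmrp, had -0.02. Sit1 (5 counts in GalTKO and 3 in wildtype) and the immunoglobulin pseudogenes Igkv12-66 and Igkv12-67 (0 counts) were not tested.

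In a wider window of 500 kb on each side, chosen after the data were seen, the calls lay around Rpph1. Of 15 genes tested there, 5 were called by edgeR, 7 by DESeq2 and 5 by voom. Over all 16957 genes tested, edgeR called 2.55%, DESeq2 1044 genes and voom 558. Around Rpph1 the edgeR count was 3 without any 1 of the wildtype libraries and 4 without GalTKO replicate 1. Rnase1, a secreted ribonuclease, rose to 7.39 ± 1.02 CPM in GalTKO libraries, against 0.306 ± 0.041 CPM in wildtype libraries (SD, n = 3 each; log2 fold change 4.57 ± 0.26, SE, adjusted p = 0.000114, edgeR). Gm26782 fell to 2.96 ± 0.71 CPM in GalTKO libraries, against 16.8 ± 3.25 CPM in wildtype libraries (log2 fold change -2.52 ± 0.22, SE, adjusted p = 0.000859, edgeR). Both were called with each library left out. Ang, the ribonuclease angiogenin, fell to 0.792 ± 0.201 CPM in GalTKO libraries, against 3.03 ± 0.55 CPM in wildtype libraries (log2 fold change -1.93 ± 0.30, SE, adjusted p = 0.0158, edgeR; called in 4 of 6 fits with a library left out). Osgep, of the complex that makes the t6A base in transfer RNA, fell to 23.7 ± 1.08 CPM in GalTKO libraries, against 34.5 ± 1.79 CPM in wildtype libraries (log2 fold change -0.54 ± 0.09, SE, adjusted p = 0.0258, edgeR; called in 2 of 6). Ccnb1ip1 was the fifth. Around Rprl3, 22 genes were tested and 0 were called by edgeR or voom, 1 by DESeq2, with 3 at an unadjusted p under 0.05. The smallest adjusted p was 0.0644 for Cd209a, a lectin of myeloid cells, at -1.88 ± 0.42 (log2 fold change, SE). Around Rmrp, 28 genes were tested, with 0 called by edgeR or voom, 1 by DESeq2 and 3 at an unadjusted p under 0.05. Around Rn7sk, 16 were tested, with 0 called by edgeR, 2 by DESeq2, 1 by voom and 5 at an unadjusted p under 0.05. Around Rprl2, 2 were tested, with 0 called by any of these tools and 0 at an unadjusted p under 0.05. Over all genes tested, 17.1% had an unadjusted p under 0.05 in edgeR. The difference between windows was not tested, nor was the part of inherited strain segments.

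**Figure D3:**
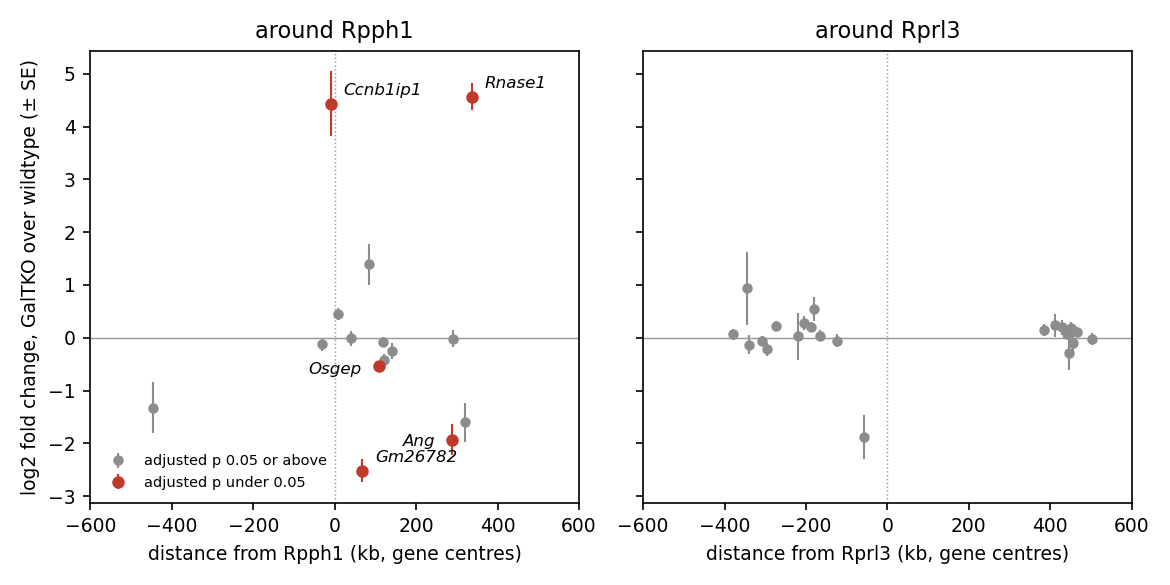
Log2 fold change of GalTKO over wildtype (y axis, bars ± SE) of each tested gene within 500 kb of Rpph1 (left) and Rprl3 (right) by distance between gene centres (kb, x axis); red points have an adjusted p under 0.05. Around Rpph1, Ccnb1ip1 and Rnase1 were higher and Gm26782, Ang and Osgep lower in GalTKO; around Rprl3 no tested gene passed in edgeR.

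The protein partners of these RNAs did not pass the test in either direction. All 11 protein genes of RNase P and RNase MRP were tested, and 0 were called by edgeR, DESeq2 or limma voom. Of the 11, 1 had an unadjusted p under 0.05 in edgeR (17.1% of all genes tested did). Their median log2 fold change was 0.18, with 9 of 11 above 0, beside a median of 0.02 and 53.4% above 0 for all genes tested. The smallest p belonged to Pop5, with 9.48, 10.6 and 9.79 CPM in GalTKO libraries, against 7.64, 7.87 and 8.23 CPM in wildtype libraries (log2 fold change 0.33 ± 0.13, SE, adjusted p = 0.252, edgeR). Rpp38 followed with a log2 fold change of 0.41 ± 0.20 (SE), Rpp30 with 0.20 ± 0.13 and Pop1, the largest subunit, with -0.18 ± 0.12. Mitochondria use an RNase P made of protein only, and its genes Trmt10c (0.10), Hsd17b10 (0.05) and 1110008L16Rik (0.09) had log2 fold changes near 0, with 0 of 3 called by edgeR, DESeq2 or voom and 0 at an unadjusted p under 0.05.

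The 7SK particle and P-TEFb showed the same lack of calls. Of 8 genes tested, 0 were called by edgeR, DESeq2 or voom and 1 had an unadjusted p under 0.05, with a median log2 fold change of -0.004. Larp7, which binds and stabilises 7SK RNA, had 25.4, 25.9 and 27.0 CPM in GalTKO libraries, against 22.3, 23.2 and 22.0 CPM in wildtype libraries (log2 fold change 0.22 ± 0.09, SE, adjusted p = 0.276, edgeR). The Larp7 libraries did not overlap between genotypes, as in 23.7% of all genes tested. The log2 fold change was -0.35 ± 0.21 (SE) for the inhibitor Hexim2, -0.11 for cyclin T1 (Ccnt1) and 0.10 for cyclin T2 (Ccnt2). The super elongation complex, which receives active P-TEFb, had 7 genes tested, 0 called by any of these tools and 1 at an unadjusted p under 0.05. Its smallest p belonged to the elongation factor gene Ell (log2 fold change 0.25, adjusted p = 0.278, edgeR), followed by Mllt3 (-0.25), Aff4 (-0.14) and Eaf1 (-0.14).

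The machinery that transcribes such RNAs gave a like picture. Of 10 tested factors of small nuclear RNA promoters, 0 were called by edgeR, DESeq2 or voom and 1 had an unadjusted p under 0.05, namely Snapc3, a subunit of the activating complex SNAPc, with a log2 fold change of 0.39 ± 0.14 (SE, adjusted p = 0.218, edgeR). Snapc5 had 0.29, Snapc2 0.19 and the TATA-binding protein gene Tbp 0.19. Of 23 tested genes of RNA polymerase III and its general factors, 0 were called by these tools, around a median log2 fold change of 0.02. Of the 23, 4 had an unadjusted p under 0.05, beside 17.1% of all genes tested. Crcp, a polymerase subunit, had 17.5, 17.5 and 18.1 CPM in GalTKO libraries, against 14.0, 14.1 and 13.1 CPM in wildtype libraries (log2 fold change 0.37 ± 0.10, SE, adjusted p = 0.126, edgeR). Polr1d (-0.29), Gtf3c1 (-0.21) and the subunit gene Polr3g (0.30) were the other 3. Polr1d was called without GalTKO replicate 2 (log2 fold change -0.41, adjusted p = 0.0389, edgeR).

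For other small RNAs made by RNA polymerase III, the number of calls depended on the test. Of 5 tested in the list, 0 were called by edgeR, 3 by DESeq2 and 1 by voom, and 3 had an unadjusted p under 0.05. Of all 16957 genes tested, DESeq2 called 1044 and voom 558, and 17.1% had an unadjusted p under 0.05 in edgeR. All 5 log2 fold changes in the list were above 0, with a median of 1.18. Rny3, a Y RNA bound by the Ro protein, had 7.74, 7.42 and 13.2 CPM in GalTKO libraries, against 4.68, 3.68 and 4.07 CPM in wildtype libraries (log2 fold change 1.18 ± 0.25, SE, adjusted p = 0.0524, edgeR, and 0.000746, DESeq2). Rny1, the other Y RNA, had 1.59 ± 0.41 (log2 fold change, SE, adjusted p = 0.101, edgeR). For the signal recognition particle RNAs the log2 fold change was 0.73 ± 0.23 in Rn7s2 and 1.5 ± 0.73 in Rn7s1 (SE). The list also held Rnu73b, which the annotation types as a snoRNA, a class that is not made by RNA polymerase III, and its log2 fold change was 0.44. Without it, 4 genes were tested, all above 0 with a median of 1.34, and the numbers called by each tool were the same. Without GalTKO replicate 2, Rny3, Rny1 and Rn7s2 passed in edgeR.

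**Figure D4:**
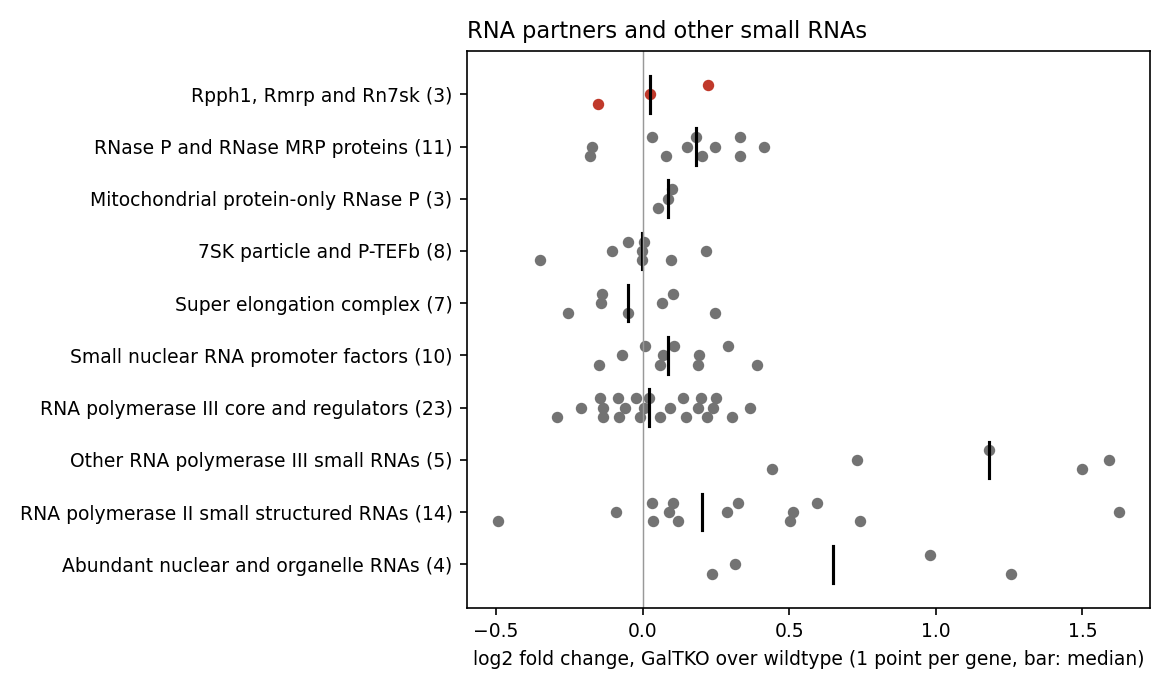
Log2 fold change of GalTKO over wildtype (x axis, 1 point per tested gene, bar at the median) for Rpph1, Rmrp and Rn7sk (red) and for lists of their partners and of other RNAs (grey, number tested in brackets); points are spread vertically for visibility. Medians of the protein lists run from -0.05 (super elongation complex) to 0.18 (RNase P and RNase MRP proteins). The other RNA polymerase III small RNAs, Rnu73b included, have a median of 1.18 and no point below 0.

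Small structured RNAs made by RNA polymerase II had 14 genes tested, 0 called by edgeR, DESeq2 or voom, 1 at an unadjusted p under 0.05 and a median log2 fold change of 0.20. Scarna13 had 0.50 ± 0.18 (SE, adjusted p = 0.204, edgeR), the minor spliceosomal RNA Rnu11 1.62 ± 0.74, Snord118 -0.49 and Scarna6 0.33. Among abundant nuclear and organelle RNAs, 4 were tested, 0 were called by edgeR or voom, and 1 was called by DESeq2 (mt-Rnr2). Of the 4, 2 had an unadjusted p under 0.05 in edgeR (17.1% of all genes tested did). The mitochondrial ribosomal RNAs mt-Rnr1 (1.26 ± 0.37, adjusted p = 0.158, edgeR) and mt-Rnr2 (0.98 ± 0.27, adjusted p = 0.13) had the larger log2 fold changes (SE), beside 0.23 for Neat1 and 0.32 for Malat1. Without wildtype replicate 2, mt-Rnr2 was called in edgeR (1.33, adjusted p = 0.0244).

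Over all 3521 other annotated small noncoding RNA genes, the summed level was 2371, 1532 and 2554 CPM in GalTKO libraries, against 1114, 1413 and 1361 CPM in wildtype libraries. It was higher in each GalTKO library, and still so without Gm24305, which had 16584 counts in GalTKO replicate 1 (1729, 1523 and 2536 CPM in GalTKO against 1109, 1406 and 1355 CPM in wildtype). The sum was not taken without other abundant small RNAs. Rn7s1, for example, had 477.5, 124.3 and 527.8 CPM in GalTKO and 69.53, 91.31 and 238.9 CPM in wildtype libraries. Whether the separation of the sums rests on a few such genes was therefore not tested. Of 92 such genes tested, 86 had a log2 fold change above 0, with a median of 0.60, and 1, the snoRNA Gm26397, was called by edgeR (log2 fold change 1.31, adjusted p = 0.0398), while 32 had an unadjusted p under 0.05 (17.1% of all genes did). GalTKO libraries were all above wildtype libraries in 31 of the 92, against 11.8% of all genes. Relative to the full sum, Gm24305 included, the log2 fold change was -0.84 for Rpph1, -0.75 for Rmrp, -0.48 for Rn7sk and 7.61 for Rprl3. These values were not computed without Gm24305, so the part of that gene in them is not known. The part of small RNA recovery in the levels of the RNase P, RNase MRP and 7SK RNAs was not tested.

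The genes whose pattern over the 6 libraries lay nearest to each RNA were listed by the root mean square difference of centred log2 CPM. Nearest to Rprl3 were the MHC class II locus H2-Ea-ps (0.487), the histone pseudogene Hist1h2al (0.669) and Ptprv (0.872), which are on chromosomes 17, 13 and 1. Nearest to Rn7sk were the ribosomal protein gene Rps27a (0.017), Zrsr1 (0.036) and the ATP synthase gene Atp5j (0.040). For Rpph1 they were Fgd6 (0.044), Lmo2 (0.066) and Zfp248 (0.068), and for Rmrp Snord42b (0.090), Ccnj (0.113) and Angptl7 (0.125). The distances for Rprl3 were larger than those for the other RNAs. The measure is not scaled for the size of the genotype difference, for which Rprl3 was chosen, so nothing is read from this.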

How the data were processed

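Total RNA of 6 ovary samples (3 GalTKO, 3 wildtype, assigned by title) was depleted of ribosomal RNA with Ribo-Zero Gold and made into stranded libraries, per the labels' protocols. The deposited table holds raw whole-number counts by Ensembl gene, not normalized by the authors. The submitters' processing notes name cutadapt 1.16, STAR 2.7.6a, featureCounts 1.6.3, DESeq2 1.30.1 and GRCm38; their roles, the strand setting, the annotation release, the read length and the handling of multiply matching reads were not given in the sources used here. Counts at RNAs with near-identical copies depend on that handling.

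Names, positions and transcript sequences came from GENCODE M21 (GRCm38), which matched 55227 of 55487 identifiers; the 260 others held 0.00307% of counts. Every pair of libraries differed beyond sampling noise (chi-square per degree of freedom at least 12). Counts were fitted with edgeR 4.0.16 in R 4.3.3: filterByExpr (minimum count 10, minimum total 15) left 16957 genes, scaling was TMM, and a robust quasi-likelihood model had genotype as its only term. P-values are two-sided and Benjamini-Hochberg adjusted over all genes tested, and an adjusted p under 0.05 was called. The common biological coefficient of variation was 17.4%. The fit was tested on simulated data. RPKM here is CPM divided by annotated length in kb. A count of 0 was taken to allow 3 counts; intervals are at 95%. Sequences were aligned locally with Biopython 1.88, similar genes found with blastn of BLAST 2.17.0, and figures drawn with matplotlib 3.10.9 in Python 3.11.15 (pandas 2.3.3, scipy 1.17.1).

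The RNA genes and the 9 lists were chosen with earlier results of these data known. Genes named are Galt, the 6 RNA genes, up to 4 of each list by smallest p, tested neighbours within 10 kb, and the 3 nearest patterns of each tested RNA gene, leaving out predicted and clone-named genes. The 500 kb window, its genes, the untested neighbours, the sequence copies Gm24447, Gm24146 and Gm25661, Gm26397, Gm24305 and Rnu73b, with the value of its list without it, were added after their values were seen. Alternatives were RLE, upper-quartile and total count scaling, DESeq2 1.42.0, limma 3.58.1 voom, a replicate block, no filter, an adjusted p of 0.1, each library left out, a minimum of 1 CPM in 3 libraries, and levels relative to other small RNAs or to Rn7sk.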

Additional observations from a re-analysis of the deposited data

How the results depend on the processing

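Under the other scalings, tests, filters, the block and each library left out, the log2 fold change stayed between -0.25 and -0.06 for Rpph1, 0.08 and 0.31 for Rn7sk, and -0.27 and 0.25 for Rmrp, which is near 0 and changes sign. The log2 fold change of the summed RNase P RNA genes stayed between -0.25 and -0.06 in 14 other settings, and that of Rprl1 to Rprl3 together between 6.79 and 7.79. Rprl3 ranged from 7.70 to 11.39 with a library left out, the highest without wildtype replicate 2, the only wildtype library with counts of it. Wildtype is then at 0, so 11.39 depends on the prior count and is no measured fold, and only the bound of at least 227-fold holds. Relative to the other small noncoding RNAs, Gm24305 included, the log2 fold change was -0.84 for Rpph1, -0.75 for Rmrp, -0.48 for Rn7sk (opposite in sign) and 7.61 for Rprl3. Relative to Rn7sk it was -0.36 for Rpph1. The cause was not tested.

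The number of genes called, 433 as reported, was 761 at an adjusted p of 0.1, 1044 with DESeq2 and 877 without a filter, and 165 to 742 with a library left out (263 without GalTKO replicate 1, 742 without GalTKO replicate 2, and 181, 165 and 202 without wildtype replicates 1, 2 and 3). Of the other RNA polymerase III small RNAs 1 was called at an adjusted p of 0.1, 3 with DESeq2, 1 with voom, 2 without a filter and 0 to 3 with a library left out. Of the abundant nuclear and organelle RNAs 1 was called with DESeq2 and 0 to 1 with a library left out, and of the RNA polymerase III core genes 0 to 1. Neighbours within 10 kb, whose alternatives were added after seeing the data, gave 2 calls at an adjusted p of 0.1, 2 with DESeq2, 0 with the filter of 1 CPM in 3 libraries, which drops Ccnb1ip1, and 0 to 1 with a library left out. The other lists stayed at 0 in every setting.

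Same-numbered GalTKO and wildtype libraries had correlations of deviations of 0.153, -0.058 and 0.126, and unlike-numbered pairs ran from -0.202 to 0.0543. Deviations from a mean of 3 libraries are not independent. These values therefore cannot decide whether same-numbered libraries share more than a number. With the replicate number as a block, 321 genes were called, 125 higher and 196 lower in GalTKO, and the calls near Rpph1 went to 3 of 15.

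Limits are 3 libraries per genotype, close copies of Rpph1 and Rn7sk, and overlapping entries at Rpph1, Rmrp and Rprl1. Another is counts of 0 to 3 per wildtype library for Rprl3, Rprl2 and Ccnb1ip1, where counting error is large.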
